A study of Mus musculus with 36 samples.

Results

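The insulin and insulin-like growth factor (IGF) signalling genes described here are Insr, Igf1r, Igf1, Igfbp1, Igfbp3, Irs1, Irs2, Pik3r1, Foxo1 and Foxo3. They were taken by symbol from the count tables, and these 10 genes out of 53715 were each matched to 1 Ensembl identifier. The data are RNA-seq read counts from the whole kidney of each of 36 mice, which fall into 4 groups of 9. STZ-cKOt mice carried Bmal1 lox/lox with the Pax8-rtTA and LC1 transgenes and received streptozotocin (STZ). PBS-cKOt mice had that genotype and received the vehicle, phosphate-buffered saline (PBS). STZ-control and PBS-control mice were Bmal1 lox/lox littermates given the same injections. In the cKOt mice the Pax8 promoter drives a doxycycline-dependent activator in the renal tubule, which turns on the Cre recombinase of LC1, so that kidney cells outside the tubule keep Bmal1. All mice, controls included, drank doxycycline at 2 mg/ml for 2 weeks from the age of 8 weeks. Daily injections, with STZ at 50 mg/kg, started 1 week after doxycycline ended and went on for 5 days. The tissue was taken 8 weeks later, 9 h after the lights came on. STZ destroys the insulin-producing beta cells of the pancreas, so the STZ mice model type 1 diabetes. Sex and glucose values of single mice are not given in the sources used here.

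Insulin and IGF-1 bind related receptor tyrosine kinases, INSR and IGF1R, which phosphorylate the adaptor proteins IRS1 and IRS2. The adaptors recruit phosphatidylinositol 3-kinase through its regulatory subunit, encoded by Pik3r1, and the kinase AKT then keeps the transcription factors FOXO1 and FOXO3 out of the nucleus. When insulin is low, FOXO proteins enter the nucleus and raise genes such as Igfbp1, Irs2, G6pc and Pck1 in liver. IGF-binding proteins such as IGFBP1 and IGFBP3 hold IGFs in the circulation and in tissue. In the kidney, insulin acts on the proximal tubule, where it lowers glucose production, and on more distal segments, where it promotes sodium reabsorption.

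Promoter letters of 3 members are shown, the only ones whose searched promoter held either of the motifs marked below. Irs1 was higher after STZ in both genotypes and Igfbp1 in cKOt mice, and Irs2 is the paralog of Irs1. The stretches run from base 150 to base 21 before the RefSeq gene start (GRCm38.p6), 5′ to 3′ in the direction of the gene. Capitals mark the E-box CACGTG, a site of the CLOCK and BMAL1 complex, and the insulin response sequence CAAAACA or its reverse complement TGTTTTG.
Irs1: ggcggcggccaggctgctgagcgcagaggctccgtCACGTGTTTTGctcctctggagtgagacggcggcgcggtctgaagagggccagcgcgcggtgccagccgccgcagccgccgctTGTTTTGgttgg
Irs2: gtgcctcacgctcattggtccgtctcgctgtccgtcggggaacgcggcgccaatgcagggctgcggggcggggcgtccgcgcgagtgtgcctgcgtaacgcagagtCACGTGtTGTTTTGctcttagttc
Igfbp1: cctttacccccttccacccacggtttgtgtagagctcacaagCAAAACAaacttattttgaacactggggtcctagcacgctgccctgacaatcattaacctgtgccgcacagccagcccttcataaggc
The Irs1 stretch lies at chr1:82291460-82291589 on the minus strand, that of Irs2 at chr8:11008950-11009079 on the minus strand and that of Igfbp1 at chr11:7197637-7197766 on the plus strand.

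Of the 10 members, 9 had a promoter in the RefSeq table, Insr being the exception. Windows from 250 bases before to 50 after the start were searched on both strands. The Irs1 promoter held an E-box at bases 115 to 110 before the start, which overlapped an insulin response sequence at bases 111 to 105, and another insulin response sequence at bases 32 to 26. In the Irs2 promoter the E-box stood at bases 44 to 39 and the insulin response sequence at bases 37 to 31. The RefSeq start of Irs2 lies upstream of the gene model given further on, chr8:10984681-11008458, so distances from that model are longer. Igfbp1 had the insulin response sequence at bases 108 to 102 and no E-box in this window. The windows of the other members searched held neither motif, that of Foxo3 included, which also rose after STZ in cKOt mice. Of 32851 promoters in the table, 7.15% held an E-box, 6.28% an insulin response sequence and 0.408% both. The 2 motifs began within 10 bases of each other in 9 promoters, Irs1 and Irs2 among them, a spacing chosen after the matches were seen. Neither the forkhead site GTAAACA nor the D-box TTATGTAA was found in a member's window, against 3.65% and 0.938% of all promoters. The nuclear receptor site AGGTCA was found in Igf1r and Igf1, against 16.3% of all promoters. These are matches of letters, with no measurement of binding.

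Each library held 16.9 M to 22.3 M reads that fell in genes. Levels are given in CPM, read counts scaled to a common library total, on library sizes scaled by the trimmed mean of M values (TMM). Arntl, the gene symbol of Bmal1, stood between 12.9 and 17.4 CPM in the 18 cKOt libraries, against 1.09 to 2.64 CPM in 17 of the 18 control libraries. Ciart, a gene that BMAL1 activates, ran from 1.10 to 3.63 CPM in the cKOt libraries, against 12.9 to 32.5 CPM in the same 17 control libraries. In the library labelled STZ-control 2, Arntl stood at 13.4 CPM and Ciart at 1.95 CPM, which goes against its label. It was kept under its label. Without it all 6 calls on the 10 genes were kept, and among the pathway genes named further on, Stc1 for STZ in control mice no longer passed (0.58, edgeR adjusted p = 0.0601) and Fbxo32 for cKOt in STZ mice did (0.41, adjusted p = 0.0386). The Arntl count covers the whole gene, the undeleted part included, and was higher, not lower, in cKOt. The log2 level fell with each doubling of exon length by 0.15 in PBS-cKOt 1 and by 0.13 in STZ-control 7, which were apart from the rest. STZ-control 8 and PBS-cKOt 3 followed, at falls of 0.07 and 0.06, and ran on without a gap to the other libraries, of which the highest rose by 0.08. STZ-control 7 and 8 also had the highest mitochondrial shares of assigned reads, 25.6% and 24.7%, where the other libraries had 12.1% to 21.5%. Proximal tubule markers summed to between 8098 and 13240 CPM per library and fat tissue markers to between 33.5 and 312.0 CPM. The whole organ was sampled, and fewer cells of a type cannot be told apart from less RNA per cell.

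All 10 genes had reads in every library and passed the filter on low counts. Levels between genes can be compared only per length, and Igfbp3 was highest at 73.6 ± 16.8 CPM per kb of exon (mean ± SD over 36 libraries). Igf1r at 12.8 ± 1.52, Foxo3 at 10.9 ± 1.99, Insr at 9.33 ± 1.18, Pik3r1 at 7.55 ± 0.953 and Foxo1 at 6.25 ± 0.597 CPM per kb followed. Irs2 stood at 4.80 ± 2.76, Igfbp1 at 3.35 ± 2.47, Irs1 at 2.42 ± 0.488 and the ligand gene Igf1 lowest at 1.20 ± 0.218 CPM per kb. In this order the ranges of mean ± SD of neighbours overlapped, except between Igfbp3 and Igf1r and between Irs1 and Igf1. Igfbp1 and Irs2 varied most between mice, with the highest library 18.4 times and 6.24 times the lowest, against 1.48 times for Foxo1.

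**Figure D1:**
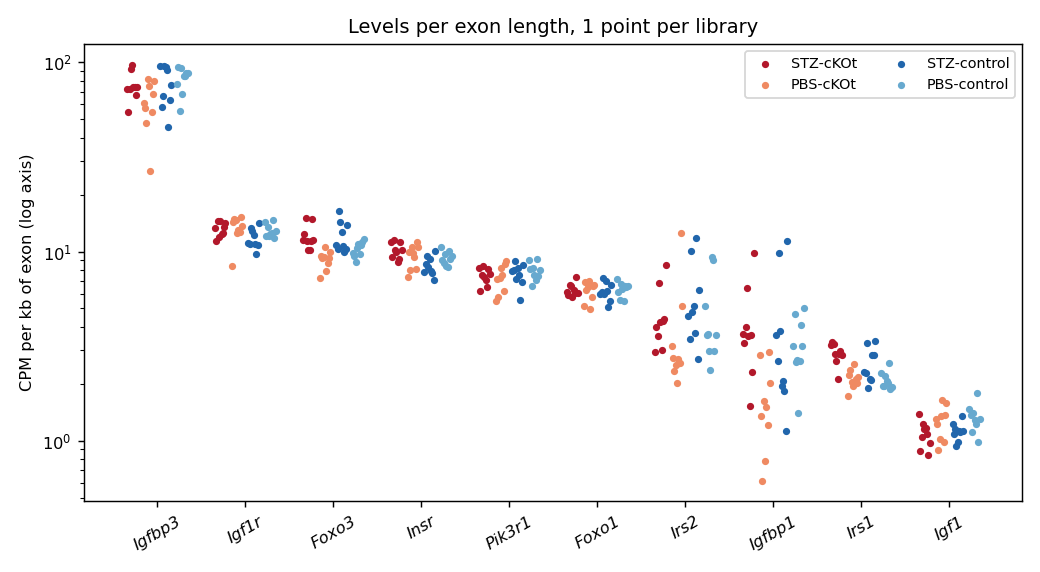
Level of each gene in CPM per kb of exon on a log axis, 1 point per library, coloured by group (9 libraries each) and ordered by the mean over 36 libraries. Igfbp3 lies above every other gene at 73.6 CPM per kb on average and Igf1 lowest at 1.20, and the points of Igfbp1 and Irs2 spread the most.

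Insulin transcripts were at or near 0 in these kidneys. Ins1 had 0 reads in all 36 libraries. The limit that a count of 0 allows, 3 reads, comes to 0.178 CPM of the smallest library's total before TMM scaling (counting error only). On TMM library sizes the limit in that library, STZ-control 7, is higher, as 2 reads of Ins2 came to 0.133 CPM there. Ins2 had 10 reads in STZ-cKOt, 0 in PBS-cKOt, 7 in STZ-control and 1 in PBS-control libraries, with no library above 2 reads. The IGF ligand gene Igf2 had 5 reads in STZ-cKOt, 4 in PBS-cKOt, 4 in STZ-control and 7 in PBS-control libraries. Igf1 was the expressed ligand (ENSMUSG00000020053, chr10:87858265-87937042, GRCm38). It ran from 8.27 through a median of 10.7 to 13.8 CPM in STZ-cKOt and from 8.80 through 12.9 to 16.2 CPM in PBS-cKOt. In STZ-control it ran from 9.25 through 11.2 to 13.3 CPM, against 9.76 through 12.95 to 17.6 CPM in PBS-control. In each genotype 8 of 9 STZ libraries lay below the PBS median, with wide overlap. The log2 difference was −0.22 ± 0.11 in cKOt mice and −0.24 ± 0.11 in control mice (± SE), and neither passed (edgeR adjusted p = 0.194 and 0.141).

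The insulin receptor gene Insr (ENSMUSG00000005534, chr8:3122061-3279617) was higher in STZ-cKOt than in STZ-control kidneys. It ran from 121.6 through a median of 140.0 to 158.3 CPM in STZ-cKOt, against 97.2 through 114.5 to 138.4 CPM in STZ-control. All 9 STZ-cKOt libraries lay above the STZ-control median and 5 of 9 above every STZ-control library. Insr was thus 1.21 times as high, a log2 difference of 0.27 ± 0.08 (edgeR adjusted p = 0.00848). In PBS mice it ran from 100.6 through 135.6 to 154.0 CPM in cKOt, against 113.2 through 124.9 to 146.1 CPM in control, a log2 difference of 0.03 ± 0.08 (adjusted p = 0.844). The STZ effect stood at 0.11 ± 0.08 in cKOt mice and at −0.13 ± 0.08 in control mice, and neither passed (adjusted p = 0.386 and 0.251). The difference between these STZ effects was 0.24 ± 0.11 on the log2 scale and did not pass (edgeR adjusted p = 0.373). For Insr the lowest STZ-control libraries were 8 and 7, the pair with the highest mitochondrial shares. In this pair the log2 level also fell with each doubling of exon length, by 0.07 and 0.13. In the 3 highest STZ-cKOt libraries, 3, 8 and 1, it rose by 0.04, 0.06 and 0.05. Insr has 13746 bases of exon, and the part of this length trend in its difference was not tested. Without STZ-control 7 and 8 the rise of Insr in STZ-cKOt was 0.22 ± 0.08 (edgeR adjusted p = 0.0446). It was 0.25 without STZ-control 7 and PBS-cKOt 1 (adjusted p = 0.00806) and 0.27 without STZ-control 2 (adjusted p = 0.0121). In the same comparison 5 of 7 macrophage markers were lower and 0 higher, against 10.1% of all tested genes lower. The macrophage sum ran from 170.8 to 211.4 CPM in STZ-cKOt and from 202.6 to 361.7 CPM in STZ-control, and its part in the Insr difference was not tested.

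Igf1r, the IGF-1 receptor gene (ENSMUSG00000005533, chr7:67952827-68233668), passed in no comparison. It ran from 191.5 through 224.5 to 242.8 CPM in STZ-cKOt, 141.6 through 228.3 to 256.6 CPM in PBS-cKOt, 163.6 through 186.8 to 238.9 CPM in STZ-control and 196.9 through 210.4 to 245.8 CPM in PBS-control. As with Insr, all 9 STZ-cKOt libraries lay above the STZ-control median, at a log2 difference of 0.16 ± 0.08 (edgeR adjusted p = 0.176). Its other pairwise differences lay between −0.13 and 0.04.

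Irs1, the adaptor gene (ENSMUSG00000055980, chr1:82233101-82291416), was higher after STZ in both genotypes. In cKOt mice it ran from 19.5 through 26.4 to 30.4 CPM with STZ, against 15.7 through 19.4 to 23.1 CPM with PBS. Of the 9 STZ-cKOt libraries, 8 lay above every PBS-cKOt library. That rise was 1.37-fold, a log2 difference of 0.45 ± 0.10 (edgeR adjusted p = 0.00132). In control mice it ran from 17.4 through 21.2 to 30.8 CPM with STZ, against 17.2 through 18.4 to 23.4 CPM with PBS, and 4 of 9 STZ-control libraries lay above every PBS-control library. The rise in control mice was 0.29 ± 0.10 (adjusted p = 0.0384), close to the threshold. This call was lost when PBS-control 2, 3, 5, 6, 8 or 9 or STZ-control 3, 7, 8 or 9 was left out, with the log2 difference at 0.235 or more and adjusted p at most 0.0979. It was also lost without a filter on low counts (adjusted p = 0.0504), in a fit to the 2 groups alone (0.0686), with limma (0.0812), without STZ-control 7 and PBS-cKOt 1 (0.0509), and without STZ-control 7 and 8 (0.122). In all, the call was kept in 4 of the 11 settings other than leaving out 1 library. The 2 STZ effects differed by 0.16 ± 0.14, which did not pass (adjusted p = 0.581).

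Irs2 (ENSMUSG00000038894, chr8:10984681-11008458) spread widely within each group and passed in no comparison. It ran from 18.6 through 26.7 to 53.8 CPM in STZ-cKOt, 12.8 through 17.2 to 79.7 CPM in PBS-cKOt, 17.2 through 30.3 to 74.9 CPM in STZ-control and 14.9 through 23.0 to 59.1 CPM in PBS-control. Its SD was between 39.7% and 84.5% of the mean of a group, where that of Irs1 was between 10.6% and 21.2%. The high values came from a few mice in each group. The top 2 libraries were 8 and 9 in PBS-cKOt, 3 and 7 in STZ-control and 6 and 7 in PBS-control, and these were also the top 2 of their groups for Cish, a STAT5-induced inhibitor of cytokine signalling. In STZ-cKOt the top 2 were 4 and 9 for Irs2 and 3 and 4 for Cish. Cish was among the genes whose level correlated best with that of Irs2 over these libraries (Pearson r = 0.79, group means subtracted). The shared top libraries follow in part from that and are not separate support. The log2 differences of Irs2 between groups lay between −0.33 and 0.30 with SE of 0.32, so a difference of this size was not detectable with this spread. Leaving out 1 library moved the cKOt difference in PBS mice to between −0.71 and −0.07 (lowest edgeR adjusted p = 0.066). The STZ difference in cKOt mice then ran from 0.06 to 0.68 (lowest edgeR adjusted p = 0.112). All 9 STZ-cKOt libraries lay above the PBS-cKOt median and 0 above every PBS-cKOt library. The antisense locus 9530052E02Rik overlaps Irs2 and had 602 reads in all, against 21686 for Irs2. The effect of this overlap on the Irs2 count was not tested.

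**Figure D2:**
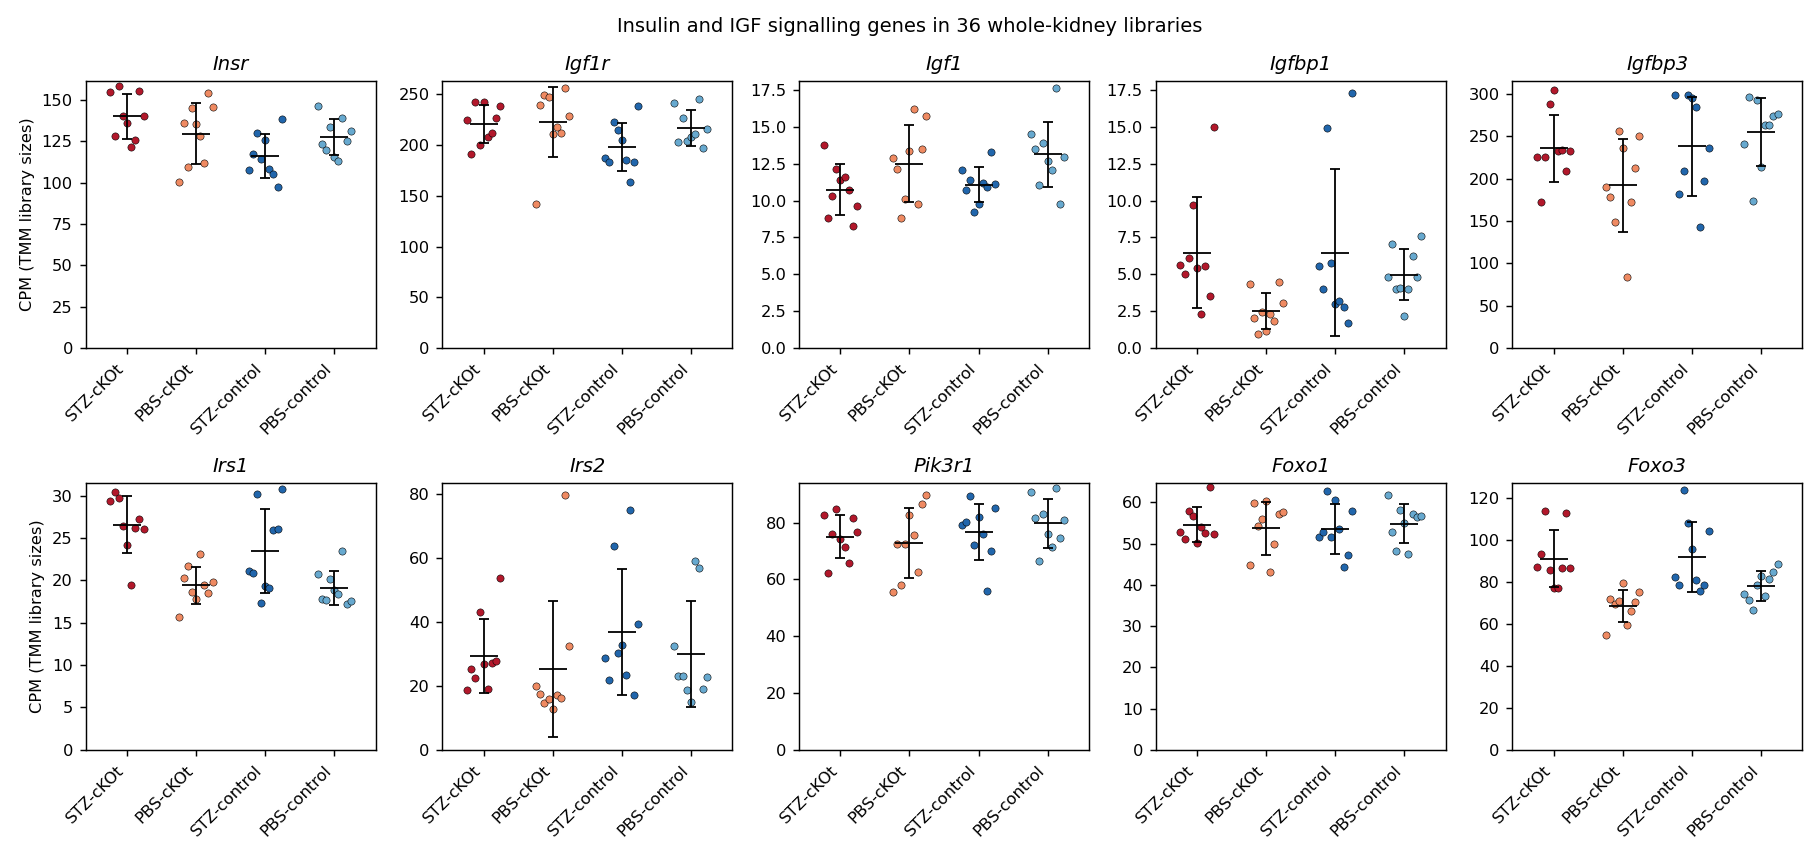
CPM of the 10 genes in every library (points) with mean and SD (bars), 9 libraries per group, each axis starting at 0. Irs1 and Foxo3 lie higher in the STZ-cKOt than in the PBS-cKOt libraries, Igfbp1 lowest in PBS-cKOt, and Irs2 carries a few high libraries in each group.

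Foxo3, a FOXO transcription factor gene (ENSMUSG00000048756, chr10:42181841-42276755), was higher after STZ in cKOt mice. It ran from 76.9 through 86.9 to 113.9 CPM in STZ-cKOt, against 54.8 through 70.3 to 79.7 CPM in PBS-cKOt, and 7 of 9 STZ-cKOt libraries lay above every PBS-cKOt library. The rise was 1.33-fold, a log2 difference of 0.41 ± 0.09 (edgeR adjusted p = 0.00178). In control mice it ran from 75.7 through 82.3 to 123.9 CPM with STZ, against 66.8 through 78.6 to 88.4 CPM with PBS. That difference was 0.24 ± 0.09 and missed the threshold (adjusted p = 0.0757). It passed without STZ-control 7 (0.28, adjusted p = 0.0454), without STZ-control 7 and PBS-cKOt 1 (0.28, adjusted p = 0.0322), without STZ-control 7 and 8 (0.31, adjusted p = 0.0282) and with 2 surrogate variables (0.32, adjusted p = 0.00582). In all, it passed in 4 of the 11 settings other than leaving out 1 library. The 2 STZ effects of Foxo3 differed by 0.17 ± 0.13 (adjusted p = 0.523). In cKOt against control it stood at −0.01 ± 0.09 in STZ mice (adjusted p = 0.947) and at −0.18 ± 0.09 in PBS mice (adjusted p = 0.135).

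Its paralog Foxo1, the main FOXO factor of hepatic glucose production (ENSMUSG00000044167, chr3:52268336-52353221), had the smallest ratio of highest to lowest library among the 10 genes, at 1.48. It ran from 50.0 through 52.7 to 63.7 CPM in STZ-cKOt, 43.0 through 56.0 to 60.3 CPM in PBS-cKOt, 44.2 through 52.7 to 62.6 CPM in STZ-control and 47.5 through 56.4 to 61.8 CPM in PBS-control. Its 4 pairwise log2 differences lay between −0.03 and 0.03 with SE of 0.07 (edgeR adjusted p at least 0.775). Pik3r1 (ENSMUSG00000041417, chr13:101680563-101768217) ran from 62.4 through 75.8 to 84.9 CPM in STZ-cKOt, 55.5 through 72.7 to 89.6 CPM in PBS-cKOt, 55.9 through 79.2 to 89.6 CPM in STZ-control and 66.6 through 81.0 to 92.2 CPM in PBS-control. Its log2 differences lay between −0.13 and 0.04 with SE of 0.09, and none passed by edgeR (lowest adjusted p = 0.295). With 2 surrogate variables it was lower in STZ-cKOt than in STZ-control, at −0.14 (adjusted p = 0.0133).

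Igfbp1, a classical FOXO target that insulin represses in liver (ENSMUSG00000020429, chr11:7197782-7202546), was higher after STZ in cKOt mice. It ran from 2.33 through 5.54 to 15.0 CPM in STZ-cKOt, against 0.939 through 2.296 to 4.46 CPM in PBS-cKOt. In 7 of 9 STZ-cKOt libraries the level was above that of every PBS-cKOt library. The rise was 2.57-fold, a log2 difference of 1.36 ± 0.37 (edgeR adjusted p = 0.013), and 1.10 without STZ-cKOt 9 (adjusted p = 0.0498). In control mice it ran from 1.71 through 4.04 to 17.3 CPM with STZ, against 2.14 through 4.80 to 7.63 CPM with PBS. STZ-control 3 and 9 held its 2 highest values there and also those of Irs1 and Insr. The STZ effect in control mice was 0.39 ± 0.35 (adjusted p = 0.499), and the 2 STZ effects differed by 0.97 ± 0.52 (adjusted p = 0.419). In cKOt against control Igfbp1 stood at −0.01 ± 0.35 in STZ mice (edgeR adjusted p = 0.984). In PBS mice all 9 cKOt libraries lay below the control median, at −0.98 ± 0.38, just short of the threshold (adjusted p = 0.0563). That difference passed with DESeq2 (−0.98, adjusted p = 0.0454), limma voom (−1.17, adjusted p = 0.0216) and a fit to the 2 groups alone (−0.98, adjusted p = 0.0081). It also passed without STZ-control 7 and PBS-cKOt 1 together (−1.10, 0.0383), without STZ-control 7 and 8 together (−0.98, 0.0387), and when PBS-cKOt 1 or 8, STZ-cKOt 9, PBS-control 5 or STZ-control 3, 8 or 9 was left out.

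Igfbp3, the most abundant carrier of circulating IGFs (ENSMUSG00000020427, chr11:7206086-7213923), lies next to Igfbp1 on the opposite strand. It was lower in PBS-cKOt, where it ran from 83.5 through 190.4 to 256.6 CPM, than in PBS-control, where it ran from 174.1 through 263.9 to 296.5 CPM. All 9 PBS-cKOt libraries lay below the PBS-control median and 3 of 9 below every PBS-control library. The log2 difference was −0.41 ± 0.15 (edgeR adjusted p = 0.0455). The call was lost on leaving out PBS-cKOt 1, 2, 3, 6 or 7, STZ-cKOt 7, PBS-control 1, 2, 4, 6, 7, 8 or 9 or STZ-control 8, and the lowest value, in PBS-cKOt 6, gave −0.31 when left out (adjusted p = 0.0928). It was also lost without a filter on low counts (−0.39, adjusted p = 0.0802), in a fit to the 2 groups alone (−0.40, 0.0651), without STZ-control 7 and PBS-cKOt 1 (−0.40, 0.0502) and with 2 surrogate variables (−0.08, 0.726). In STZ mice Igfbp3 ran from 172.0 through 232.1 to 304.2 CPM in cKOt, against 142.7 through 236.6 to 298.5 CPM in control, a log2 difference of −0.01 ± 0.15.

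Igfbp3 moved with endothelial markers from mouse to mouse. After each group's mean was subtracted, the 3 genes most like it over the 36 libraries were Fbln5 (r = 0.92), the endothelial adhesion gene Pecam1 (r = 0.90) and Cd300lg, a gene of capillary endothelium (r = 0.88). Its r with the 7 endothelial markers lay between 0.60 and 0.90, between 0.49 and 0.76 with 5 podocyte markers, between −0.27 and 0.64 with 7 fibroblast and mural markers and between −0.18 and 0.75 with 9 proximal tubule markers. The medians of these r values were 0.80, 0.63, 0.58 and 0.55 in that order of cell types. For macrophage and fat tissue markers the medians were 0.47 and 0.15. Medians were below 0 for markers of collecting duct principal cells (−0.54), intercalated cells (−0.45), thick ascending limb (−0.18) and distal convoluted tubule (−0.16). The 1 adrenal cortex marker had r of −0.38. In PBS-cKOt against PBS-control 2 of the 7 endothelial markers, Cdh5 and Eng, and 0 of 5 podocyte markers were lower and none higher, against 12.5% of all tested genes lower. The summed level of all 7 endothelial markers ran from 201.5 to 449.0 CPM in PBS-cKOt and from 290.1 to 485.1 CPM in PBS-control. The 7 markers of fibroblasts and mural cells had 5 lower, and their sum ran from 187.6 to 261.1 CPM in PBS-cKOt and from 220.1 to 332.7 CPM in PBS-control. The part of these cells in the Igfbp3 difference was not tested. Both values of each point come from the same library, and the r values are descriptions.

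**Figure D3:**
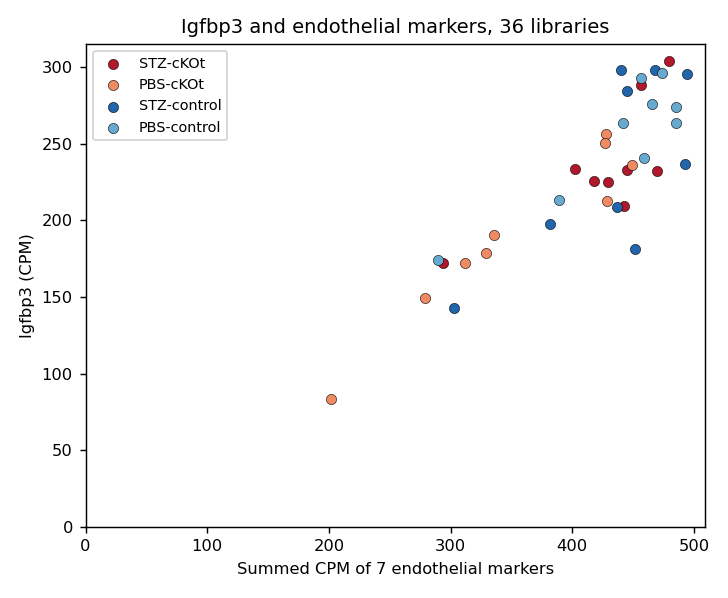
Igfbp3 in CPM against the summed CPM of 7 endothelial markers, 1 point per library, coloured by group, both axes from 0. The library with the lowest Igfbp3, at 83.5 CPM in PBS-cKOt, also has the lowest endothelial sum, 201.5 CPM.

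The other members had likenesses of their own, by the same measure. Insr was closest to Ppp2r3a, Macf1 and Lrp6 (r of 0.89 each), and Pik3r1 to Slk, Cpd and Dpy19l4 (0.90 to 0.91). Igf1r was closest to Kif13b, Gpatch8 and Arhgap32 (0.84 to 0.85), Foxo1 to Scaf11, Golga3 and Itsn1 (0.82 to 0.83) and Foxo3 to Prdm2, Atf7ip and Pip5k1a (0.75 to 0.78). Irs1 was closest to Dnm3, Sgpp2 and Ogt (0.80 to 0.81), Irs2 to Resf1, Cish and the urate and glucose transporter gene Slc2a9 (0.75 to 0.81), Igfbp1 to Erbb3, Mylip and Akr1c13 (0.80 to 0.87) and Igf1 to Rnf170, Zfp759 and Ap1s2 (0.67 to 0.76). Among the 10 members themselves, 10 of 45 pairs had r above 0.5, led by Insr with Pik3r1 (0.82), Foxo1 with Foxo3 (0.74) and Insr with Foxo1 (0.70). Apart from Irs2 with Igfbp1 (0.53), these pairs lay among Insr, Igf1r, Pik3r1, Foxo1 and Foxo3. Those genes reached r of 0.75 to 0.91 with the genes outside the list named above. The share of all gene pairs above 0.5 was not computed, so the count does not show a likeness particular to the members. The lowest was Igfbp3 with Irs1 at −0.45.

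Counted together, 3 of 10 members were higher and 0 lower after STZ in cKOt mice, where 11.6% of 15637 tested genes passed edgeR's quasi-likelihood test, 6% higher and 5.63% lower. These were Igfbp1, Irs1 and Foxo3, and the median log2 difference of the 10 was 0.17, against −0.00 over all tested genes. Before adjustment 3 had a p under 0.05 upward and 1, Igf1, downward, and DESeq2 and limma also called 3. After STZ in control mice 1 of 10 passed, Irs1 upward, against 12.3% of tested genes (6.34% higher, 5.93% lower), and the median was −0.04. In cKOt against control 1 of 10 passed in STZ mice, Insr upward, against 19.6% of tested genes (9.52% higher, 10.1% lower). In PBS mice 1 of 10 passed, Igfbp3 downward, against 23.4% (10.9% higher, 12.5% lower). With 10 genes, these counts of 1 are near the background, and settings given with the limits moved each by 1. The STZ comparisons and the knockout comparisons share groups, so their values are set side by side and not counted as separate support. By edgeR, DESeq2 and limma 0 of 10 members differed in STZ effect between the genotypes, against 0.0448% of tested genes by edgeR, and 1, Insr, had an unadjusted p under 0.05.

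**Figure D4:**
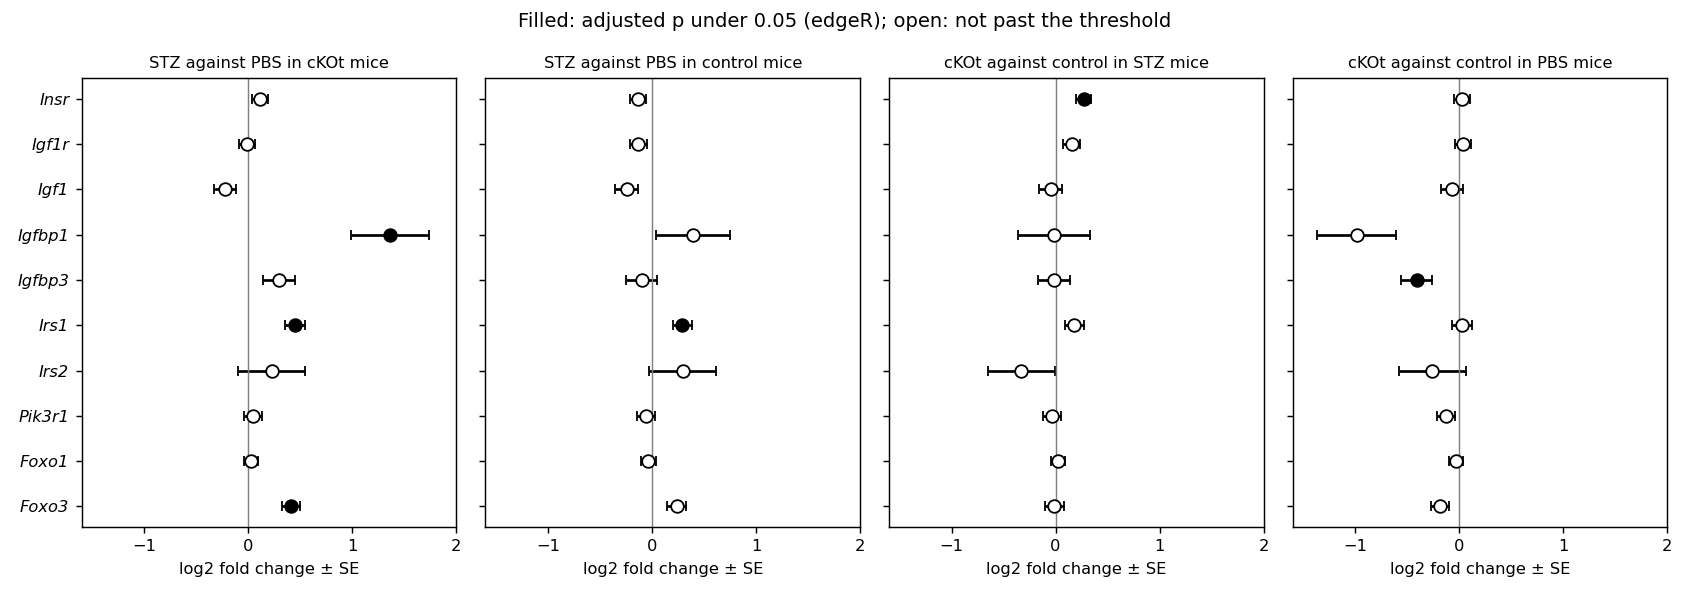
Log2 fold change ± SE of the 10 genes in the 4 pairwise comparisons of 9 against 9 libraries, from edgeR. Filled points passed an adjusted p of 0.05: Igfbp1, Irs1 and Foxo3 for STZ in cKOt mice, Irs1 for STZ in control mice, Insr for cKOt in STZ mice and Igfbp3 for cKOt in PBS mice.

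A wider list of 77 pathway genes was examined in the same fit, of which 71 passed the filter on low counts. In PBS mice 10 were higher and 20 lower in cKOt (42.3% of 71, against 23.4% of all tested genes), and the list median was −0.06. In STZ mice 11 were higher and 7 lower (25.4%, against 19.6%). With STZ, 8 were higher and 4 lower in cKOt mice (16.9%, against 11.6%), and 5 higher and 10 lower in control mice (21.1%, against 12.3%). None of the 71 passed for the difference of STZ effects by edgeR, DESeq2 or limma, and 9 had an unadjusted p under 0.05.

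The growth hormone receptor gene Ghr, which drives Igf1 in liver, was lower in cKOt. It averaged 669.5 ± 73.6 CPM in STZ-cKOt, against 914.2 ± 74.5 CPM in STZ-control, and 742.1 ± 54.9 CPM in PBS-cKOt, against 1068 ± 55.5 CPM in PBS-control (SD, n = 9 each). The log2 differences were −0.45 ± 0.06 in STZ mice and −0.52 ± 0.06 in PBS mice (edgeR adjusted p = 1.29e-07 and 3.72e-09). With STZ it stood at −0.15 ± 0.06 in cKOt mice (adjusted p = 0.0898) and fell in control mice (−0.22 ± 0.06, adjusted p = 0.00815 by edgeR). Stat5a, a transducer of growth hormone, was higher in PBS-cKOt than in PBS-control (0.56 ± 0.09) and fell with STZ in cKOt mice (−0.41 ± 0.09). Stat5b, its paralog, fell with STZ in control mice (−0.28 ± 0.07, adjusted p = 0.0056 by edgeR) and was higher in cKOt (0.32 ± 0.07 in STZ and 0.24 ± 0.07 in PBS mice).

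Of 10 tested genes for IGF-binding proteins and for factors that control IGF release, 4 were higher and 1 lower in cKOt in STZ mice, and 4 higher and 3 lower in PBS mice, where 19.6% and 23.4% of all tested genes passed. Stc2, which encodes a stanniocalcin that inhibits PAPP-A, a protease of IGF-binding proteins, was higher in cKOt and higher with STZ. It averaged 6.17 ± 1.22 CPM in STZ-cKOt, 4.27 ± 0.693 CPM in PBS-cKOt, 3.09 ± 0.333 CPM in STZ-control and 1.76 ± 0.288 CPM in PBS-control. The STZ rises were 0.53 ± 0.11 in cKOt and 0.81 ± 0.12 in control mice, and the cKOt rises were 1.00 ± 0.11 in STZ mice and 1.28 ± 0.12 in PBS mice (largest edgeR adjusted p = 0.000656). Its paralog Stc1 rose with STZ by 1.00 ± 0.20 in cKOt mice and by 0.66 ± 0.20 in control mice. Igfbp4 ran the other way, with 408.4 ± 63.3 CPM in STZ-cKOt, 552.3 ± 71.5 CPM in PBS-cKOt, 581.9 ± 64.2 CPM in STZ-control and 738.2 ± 42.0 CPM in PBS-control. Its 4 differences lay between −0.34 and −0.51, and all passed (largest edgeR adjusted p = 0.00338). Igfbp7 was higher in cKOt (0.31 ± 0.06 in STZ and 0.38 ± 0.06 in PBS mice), and Igfbp5 rose with STZ in cKOt mice (0.59 ± 0.12).

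Pappa2, whose product is a protease that frees IGF from its binding proteins, lies under the 2 CPM set for naming genes and was chosen after its values were seen. It averaged 0.320 ± 0.178 CPM in STZ-cKOt and 1.43 ± 0.478 CPM in PBS-cKOt, a fall of −2.14 ± 0.29 on the log2 scale (edgeR adjusted p = 1.79e-06). In control mice it averaged 0.564 ± 0.260 CPM with STZ and 1.05 ± 0.325 CPM with PBS, at −0.89 ± 0.28 (adjusted p = 0.0287). The STZ effects differed by −1.25 ± 0.40, which did not pass (edgeR adjusted p = 0.332). Between 1 and 42 reads per library lie behind these values. Igf2r, the receptor that clears IGF2, was lower in PBS-cKOt than in PBS-control (−0.61 ± 0.13, adjusted p = 0.000681 by edgeR) and rose with STZ in cKOt mice (0.50 ± 0.13, adjusted p = 0.0106).

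Downstream of the receptors, Mtor, the kinase of the mTOR complexes, was lower in cKOt and lower with STZ. It averaged 175.4 ± 24.9 CPM in STZ-cKOt, 221.4 ± 31.8 CPM in PBS-cKOt, 283.9 ± 53.6 CPM in STZ-control and 387.0 ± 19.2 CPM in PBS-control. The cKOt differences were −0.69 ± 0.09 in STZ mice and −0.81 ± 0.09 in PBS mice (edgeR adjusted p = 2.48e-07 and 9.09e-09). With STZ it fell by 0.34 ± 0.09 in cKOt mice and by 0.45 ± 0.09 in control mice (adjusted p = 0.013 and 0.00109 by edgeR). Ddit4, an inhibitor of mTOR complex activity, rose with STZ in control mice (0.75 ± 0.20), and Akt2, the main AKT of insulin-responsive tissues, fell (−0.19 ± 0.05). Enpp1, whose product binds and restrains the insulin receptor, was lower in cKOt, at −0.49 ± 0.09 in STZ mice and −0.84 ± 0.09 in PBS mice. Among 7 AKT and mTORC2 genes, 5 PI 3-kinase genes and 7 adaptor genes tested, 3, 2 and 2 were lower and 0 higher in PBS-cKOt than in PBS-control, where 12.5% of all tested genes were lower. In STZ mice 0, 0 and 1 of them were lower in cKOt, where 10.1% of all tested genes were.

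**Figure D5:**
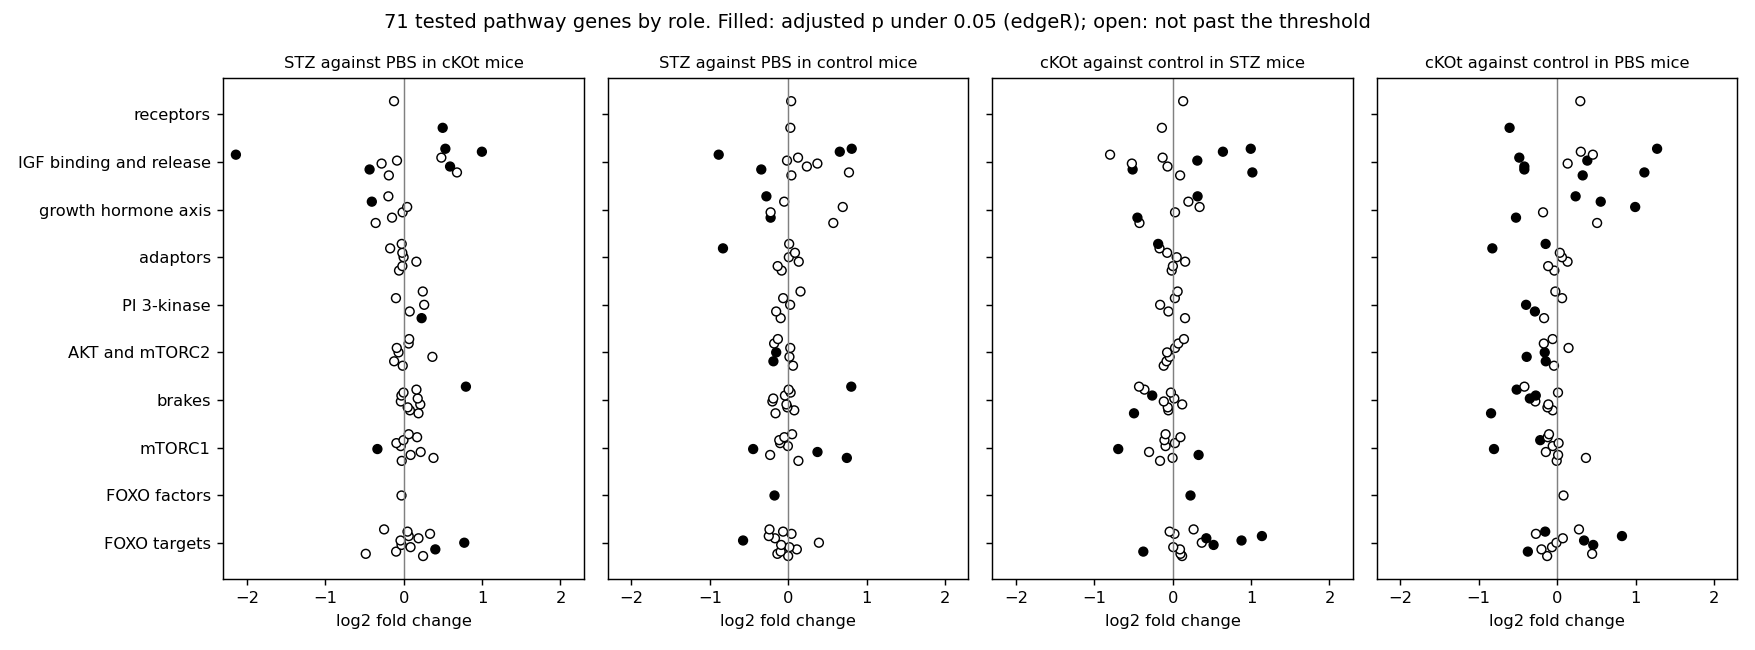
Log2 fold change of the 71 tested pathway genes (points) by role in the 4 pairwise comparisons. Filled points passed an adjusted p of 0.05 with edgeR. The filled point near −2.14 for STZ in cKOt mice is Pappa2. For cKOt in PBS mice 30 points are filled, among them 7 of the 10 IGF binding and release genes, where 23.4% of all tested genes passed.

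Of the 13 FOXO target genes tested, 4 were higher and 1 lower in cKOt in STZ mice, and 3 higher and 2 lower in PBS mice, where 19.6% and 23.4% of all tested genes passed. After STZ in cKOt mice, where 11.6% of all tested genes passed, 2 rose, the ubiquitin ligase gene Fbxo32 (0.77 ± 0.14, edgeR adjusted p = 2.00e-04) and the cyclin gene Ccng2 (0.40 ± 0.08, adjusted p = 0.000307). After STZ in control mice G6pc, which encodes the last enzyme of gluconeogenesis, fell by 0.58 ± 0.12 (adjusted p = 0.0012). G6pc averaged 601.8 ± 87.5 CPM in STZ-cKOt, 619.0 ± 102 CPM in PBS-cKOt, 327.3 ± 71.7 CPM in STZ-control and 487.8 ± 89.7 CPM in PBS-control. Its level was higher in STZ-cKOt than in STZ-control by 0.88 ± 0.12 (edgeR adjusted p = 4.21e-07). Pck1, a gluconeogenic enzyme gene, was higher in STZ-cKOt than in STZ-control (0.43 ± 0.14, adjusted p = 0.0241 by edgeR). Cat, the catalase gene, was lower in cKOt by 0.37 ± 0.05 in STZ and in PBS mice. In the STZ comparison of cKOt mice, 3 of 7 endothelial and 4 of 7 fibroblast and mural markers were higher and 4 of 9 proximal tubule markers lower, against 6% of all tested genes higher and 5.63% lower. Their part in the rises of Foxo3, Irs1 and Igfbp1 was not tested. The proximal tubule sum ran from 8098 to 11320 CPM in STZ-cKOt and from 8930 to 12680 CPM in PBS-cKOt, and the endothelial sum from 294.0 to 479.2 CPM in STZ-cKOt and from 201.5 to 449.0 CPM in PBS-cKOt.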

How the data were processed

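Whole-kidney libraries of 36 mice were prepared from 500 ng of total RNA with TruSeq Stranded mRNA reagents, per the labels' protocols. The deposited files hold raw read counts per gene made by the authors, and the tools listed are HTSeq 0.9.1, STAR 2.5.3a and cutadapt 1.8 on GRCm38, per the submitters' processing notes. Strand and counting options are not given in the sources used here. Entries for reads in no gene were left out of library sizes. Reads aligned to several places made up 30.9% to 42.8% of counted reads, reads in no annotated gene 3.64% to 6.38% and ambiguous reads 0.582% to 0.738%. Symbols and exon lengths came from GENCODE M21, promoters from RefSeq (GRCm38.p6).

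For the tests, edgeR 4.0.16 was run under R 4.3.3 (filterByExpr, TMM, 1 mean per group over 36 libraries, quasi-likelihood F test), with Benjamini-Hochberg adjustment over 15637 genes per contrast and a threshold of 0.05. SE came from the F statistic. Alternatives were DESeq2 1.42.0, limma 3.58.1 voom with quality weights, DESeq2 size factors, other filters, 2 surrogate variables from sva 3.50.0, the 2 groups of a contrast, the replicate block, and libraries left out. Leaving out each library in turn, and the pairs STZ-control 7 and 8 and STZ-control 7 and PBS-cKOt 1, was added after seeing the data. The 4 libraries left out together (STZ-control 7 and 8, PBS-cKOt 1 and 3) came from earlier results of these data. The fit was tested on simulated data. Likeness is Pearson's r of log2(CPM + 1) after subtracting group means.

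Members and lists were chosen with earlier results of these data known. All 10 members are named. Pathway genes named are the 8 with the smallest adjusted p per contrast among those called with a mean of at least 2 CPM, plus Ins1, Ins2, Igf2, Ghr, Pck1 and G6pc, except where stated. Groups came from sample titles. The labels give no batch or litter, and p-values measure the spread between these samples.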

Additional observations from a re-analysis of the deposited data

Results flagged for a closer look

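Of 40 sets of 9 values (10 genes in 4 groups), 2 held a library far from the rest, where chance flags about 1 in 20 groups. Igf1r in PBS-cKOt 1 was 141.6 CPM, lowest of 9, and this library also had the steepest fall of level with exon length. Irs2 in PBS-cKOt 8 was 79.72 CPM, highest of 9. Cish, which was among the genes most like Irs2 in these libraries, was highest in the same library of that group, at 84.3 CPM. The cause was not tested for either.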

How the results depend on the processing

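Under 47 other settings, 11 of them general and 36 leaving out 1 library each, 2284 of 2340 gene values kept their side of the threshold, 36 lost it, 20 gained it and 0 reversed. Insr in STZ mice (0.18 to 0.30) and Igfbp1 (1.10 to 1.51), Irs1 (0.41 to 0.54) and Foxo3 (0.36 to 0.44) for STZ in cKOt mice passed under all 47. Adjusted p ran from 0.00212 to 0.0446, from 0.00586 to 0.0498, from 1.18e-06 to 0.00366 and from 0.000431 to 0.00607.

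The count of members called for cKOt in PBS mice, 1 in the results above, was 0 without a filter on low counts, with 2 surrogate variables and without the 4 libraries of most negative length slope, and 2 with the replicate block, limma, DESeq2 and without STZ-control 7 and 8. For cKOt in STZ mice it was 2, not 1, with surrogate variables and with limma. For STZ in control mice it was 2 with surrogate variables and 0 with no filter, the replicate block, the 2 groups alone and limma. Without STZ-control 7 and 8, or without STZ-control 7 and PBS-cKOt 1, the member called there was Foxo3 and not Irs1. Pathway genes called for STZ in cKOt mice were 23 with surrogate variables and 20 with limma, against 12, and those for STZ in control mice were 8 without STZ-control 7 and 8, against 15. Without the 4 libraries, the log2 difference in STZ mice was 0.22 for Insr (adjusted p = 0.016). Leaving out 1 library gave 0 to 2 members for cKOt in PBS mice, 1 to 1 in STZ mice, 0 to 1 for STZ in control and 3 to 3 in cKOt mice, and 0 to 0 for the interaction. The pathway counts were then 22 to 32, 16 to 20, 9 to 16, 11 to 15 and 0 to 0. The causes were not tested, and leaving out libraries changes the number of samples and the particular values together.

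Same-numbered libraries showed little sign of pairing: r of their deviations had a median of 0.02 over 54 pairs, against 0.005 for other numbers. The highest r was 0.40, 14 pairs were above 0.1, and 7 of 36 libraries correlated best with their own number. How many would do so without pairing was not computed. With the replicate block, Igfbp1 in PBS mice passed (−0.96, adjusted p = 0.0294) and Irs1 for STZ in control mice did not (0.28, adjusted p = 0.0512). Depth limits Ins1, Ins2, Igf2 and Pappa2, with few reads per library.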
